A study of Mus musculus with 68 samples.

Results

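S100a10 and 9 genes of the S100 and annexin families or of its protein complex, namely S100a1, S100a6, S100a13, S100b, Anxa2, Anxa5, Anxa6, Anxa7 and Ahnak, were followed through single dopamine neurons of the mouse ventral tegmental area. They were taken by gene symbol from a table of 36172 genes, all 10 were found, and every one had a count in at least 1 cell. The set was chosen by the level of S100a10, which differed between the genotypes in these same cells, so that contrast is given as a description and supports nothing else. The neurons were recorded by patch clamp and their contents were drawn into the pipette and sequenced (Patch-seq), 33 cells from 3xTg mice and 35 from WT mice, all 12 months old. The 3xTg line is homozygous for its mutations, which include the Swedish APP mutation and Tau P301L, and is used as a model of Alzheimer's disease. WT mice were a separate line without the transgenes, kept in parallel on the same hybrid background, so they were not littermates, and both sexes were pooled. Because no mouse is named for any cell, each genotype counts as 1 sample, no test between genotypes was possible, and an SD over cells describes cells and not animals.

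S100 proteins are small EF-hand proteins that mostly bind calcium and then attach to partner proteins. S100A10, also called p11, is an exception whose structure stays in a fixed open state. It pairs with annexin A2, a protein that binds membranes when calcium is present. The complex binds the giant scaffold AHNAK and is known for bringing membrane proteins to the cell surface, among them serotonin receptors and the potassium channel TASK-1, and p11 in brain is studied in relation to depression.

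The coding sequence of S100a10 (Gene ID 20194, chr3:93555117-93564645, plus strand, mm10) is shown because the set was chosen by the level of this transcript. It was read from the GENCODE transcript that pairs with the RefSeq mRNA, is 294 bases long, and has its start and stop codons in capitals.
S100a10: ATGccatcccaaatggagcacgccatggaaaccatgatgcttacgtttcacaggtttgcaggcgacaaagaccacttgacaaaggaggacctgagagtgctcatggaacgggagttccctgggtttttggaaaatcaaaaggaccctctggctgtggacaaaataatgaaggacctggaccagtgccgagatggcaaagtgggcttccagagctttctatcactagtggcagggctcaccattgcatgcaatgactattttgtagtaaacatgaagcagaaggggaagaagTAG
Aligned end to end with the longest coding sequences of 15 other S100 genes, it was 46.01% to 64.35% identical, and the longest run of bases shared without a mismatch was 11. The deposited counts were estimates, and in 30 of the 40 cells with a count of S100a10 the count was not a whole number (tolerance 0.001).

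Upstream sequences are shown for the annexins at both ends of the abundance scale and for a pair of S100 genes that face away from each other. The stretches, from RefSeq on GRCm38.p6, end at the base before the listed start and are written 5′ to 3′ on the gene's strand, with the motifs TATAAA and GGGCGG (either strand) in capitals.
Anxa2 (chr9:69453533-69453682, plus strand): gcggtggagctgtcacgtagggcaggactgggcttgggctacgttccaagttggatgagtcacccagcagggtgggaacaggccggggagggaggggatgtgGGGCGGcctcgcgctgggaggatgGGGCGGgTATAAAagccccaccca
Anxa5 (chr3:36475888-36476037, minus strand): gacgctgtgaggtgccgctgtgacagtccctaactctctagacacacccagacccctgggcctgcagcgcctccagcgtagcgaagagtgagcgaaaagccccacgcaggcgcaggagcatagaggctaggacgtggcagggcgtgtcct
S100a1 and S100a13, between their starts (chr3:90514331-90514434, on the minus strand of S100a1): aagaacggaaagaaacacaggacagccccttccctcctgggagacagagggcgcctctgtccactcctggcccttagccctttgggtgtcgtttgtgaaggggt
The 150 bases before Anxa2 hold both motifs, and those before Anxa5 hold neither. Over the same window of all 32851 listed promoters, TATAAA was present in 7.57% and GGGCGG in 28.6%. The starts of S100a1 and S100a13 lie 105 bases apart on opposite strands, and neither motif occurs between them. These matches describe letters in the windows only.

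The cells carried dopaminergic transcripts, with Th (tyrosine hydroxylase), Slc6a3 (the dopamine transporter) and Slc18a2 (the vesicular monoamine transporter) counted in all 68. This follows from the selection, since the authors kept only cells positive for these markers. Totals ran from 492505 to 1678624 counts per cell and genes detected from 3800 to 10527, with a median of 8629 genes in 3xTg and 7603 in WT. The authors retained cells without Pvalb, Tmem119, P2ry12 or Aldh1l1, yet 5 cells of each genotype held a count of at least 1 of these, and a count of the microglial genes C1qa, C1qb or C1qc was present in 18 3xTg and 14 WT cells. The numbers in the cell labels fall into runs of 1 genotype (WT cells from 1 to 22, from 57 to 74 and from 94 to 96, and 3xTg cells from 24 to 55 and from 76 to 92), and what they mark is not stated. The number of genes detected differed between runs, from a median of 5367 in the first WT run to 9428.5 in the second 3xTg run.

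S100a10 was counted in 27 of 33 3xTg cells (81.8%, exact 95% Clopper-Pearson interval 64.54 to 93.02) and in 13 of 35 WT cells (37.1%, 21.47 to 55.08). On the log2(normalized count + 1) scale its level ran from 0 through a median of 5.82 to 8.06 in 3xTg, and from 0 through a median of 0 to 7.44 in WT. Most 3xTg cells thus held the transcript and most WT cells did not, but the highest WT cells reached the range of the 3xTg cells, so the genotypes overlapped. The mean over cells was 4.96 ± 2.79 (SD, n = 33 cells) in 3xTg and 1.68 ± 2.59 (SD, n = 35 cells) in WT, a difference of 3.28.

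**Figure D1:**
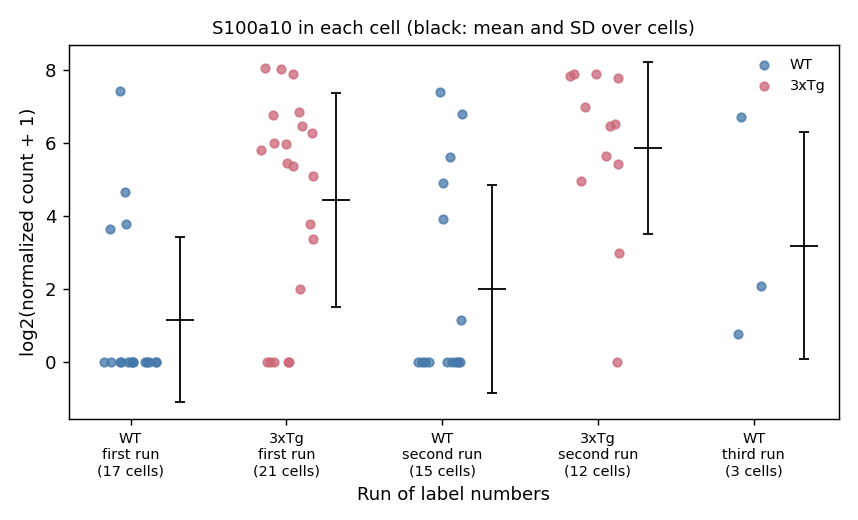
S100a10 in each cell, as log2(normalized count + 1), by run of label numbers. Points are cells, and the black mark and bar are the mean and SD over cells. Zero values make up 13 of 17 cells in the first WT run and 1 of 12 in the second 3xTg run.

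Part of the difference came from how often the gene was found and part from its level where it was found. Among cells with a count alone, the mean level was 6.06 ± 1.63 (SD, n = 27 cells) in 3xTg and 4.53 ± 2.26 (SD, n = 13 cells) in WT, a difference of 1.53. The summed counts were 2795 (exact Poisson interval 2692 to 2901) in 3xTg and 657 (608 to 709) in WT, a log2 ratio of 1.98 (1.86 to 2.10) after scaling to the total counts. These intervals cover counting error only. No single cell carried the 3xTg sum, since the highest held 9.41% of it, whereas the highest WT cell held 21.2% of the WT sum. The 5 highest cells held 39.7% of the sum in 3xTg and 81.9% in WT, so the WT sum rests on few cells.

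The order of the genotypes was the same in both pairs of runs. The mean of S100a10 was 1.15 in the first WT run (4 of 17 cells with a count) and 4.44 in the first 3xTg run (16 of 21), a difference of 3.29. It was 1.99 in the second WT run (6 of 15 cells) and 5.87 in the second 3xTg run (11 of 12), a difference of 3.88. The 3 cells of the last WT run all had a count, at 0.77, 2.08 and 6.71, so WT runs also differed among themselves. Genes detected per cell, which also differed between runs, were weakly related to S100a10 (Spearman's rho −0.10 over 33 3xTg cells and −0.08 over 35 WT cells, each from 1 library and of unequal depth), and with that number as a term the difference was 3.33.

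Among the 3988 expressed genes (those that reached a normalized count of 1 in 80% or more of either genotype's cells) S100a10 stood at rank 4 by the difference of the means, just below Morn4 (3.33) and above Exosc9 (3.23), and at rank 4 by the log2 ratio of sums. It entered that set through the 3xTg cells alone, as did 1076 genes, of which 66.4% differed by at least 1 upward, so that this route of entry went with differences of this direction. Of all genes that entered, 27.7% were higher by at least 1 in 3xTg and 0.527% lower, and the median gene was higher by 0.47. By summed counts these shares were 2.63% and 3.81%, with a median log2 ratio of −0.03.

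Anxa2, the annexin that pairs with S100A10 protein, was counted in 2 of 33 3xTg cells (6.06%, interval 0.743 to 20.2) and 1 of 35 WT cells (2.86%, 0.0723 to 14.9). Both 3xTg cells with Anxa2 also held S100a10, and the WT cell did not. Anxa2 sums were 120 and 19 counts, and 1 cell supplied 82.5% of the 3xTg sum and 1 cell the whole WT sum. The log2 ratio of 2.55 (1.84 to 3.33) therefore describes single cells, and the difference of the means over cells was 0.21.

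Ahnak, the scaffold that binds the complex, was found more often but at very low counts. It was present in 15 3xTg cells (45.5%) and 13 WT cells (37.1%), with a median of 2 and 3 counts in the cells that held it and at most 14 and 36. Its level ran from 0 through a median of 0 to 4.19 in 3xTg and to 5.18 in WT, and the means were 0.74 ± 1.03 (SD, n = 33 cells) and 0.88 ± 1.46 (SD, n = 35 cells). Sums of 39 and 106 counts gave a log2 ratio of −1.55 (−2.12 to −1.01), while the difference of the means was −0.14. Without the WT cell with the most Ahnak the ratio was −0.99, and in the second runs it was −3.37. The difference of the means had no settled sign, as it was 0.01 with a pseudocount of 0.1, 0.13 with genes detected entered as a term and 0.02 without cells with C1q counts. S100a10 and Ahnak were counted together in 14 cells, 11 of them 3xTg.

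The other S100 genes were each counted in at most 27.3% of the 3xTg cells. S100b, a calcium-binding protein best known from astrocytes, was counted in 9 of 33 3xTg cells (27.3%) and 13 of 35 WT cells (37.1%), with means of 1.38 ± 2.39 (SD, n = 33 cells) and 1.90 ± 2.72 (SD, n = 35 cells). It was lower in 3xTg by both summaries, with a difference of −0.53 and a log2 ratio of sums of −0.53 (−0.69 to −0.38). The ratio rested on single cells, since 1 3xTg cell (label number 50) held 63.6% of the 3xTg sum and 1 WT cell 30.2% of the WT sum. The ratio was −1.95 (−2.18 to −1.73) without that 3xTg cell and −0.05 (−0.22 to 0.12) without that WT cell. The first runs differed by −1.05 and the second by −0.12. The difference was −0.99 without the cells that held a count of Pvalb, Tmem119, P2ry12 or Aldh1l1, and −1.54 without those that held C1q counts. The summed level of the 8 astrocyte markers, of which Aldh1l1 was at 0, ran from 20.3 to 1688 CPM (counts per 1000000) over 3xTg cells and from 7.72 to 3050 CPM over WT cells. It was lower in 3xTg as well, with a median of 381 CPM against 528 in WT and a pooled level of 460 against 743 CPM, and its part in the S100b values was not tested.

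S100a1, a calcium sensor known from muscle and neurons, was found in 7 3xTg and 6 WT cells, with means that lay 0.05 apart. Its sums of 271 and 560 counts nevertheless gave a log2 ratio of −1.16 (−1.37 to −0.95), the WT cells that held it having a median of 72.5 counts against 20. Without the highest WT cell, which held 40.9% of the WT sum, the ratio was −0.44 (−0.68 to −0.20). S100a13, which takes part in the release of proteins that lack a signal peptide, was found in 1 cell of each genotype, with 26 counts in 3xTg and 142 in WT. S100a1 and S100a13 were counted together in 0 cells, with S100a13 present in only 2 cells in all.
S100a6 (calcyclin), which is linked to dividing and glial cells, was found in 3 3xTg and 2 WT cells, with 149 and 73 counts in sum. Its difference of the means was 0.29, at 0.41 in the first runs and −0.08 in the second, where no 3xTg cell held it. One WT cell held 97.3% of the WT sum and left 2 WT counts when taken out, so the size of the S100a6 ratio rests on it.

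**Figure D2:**
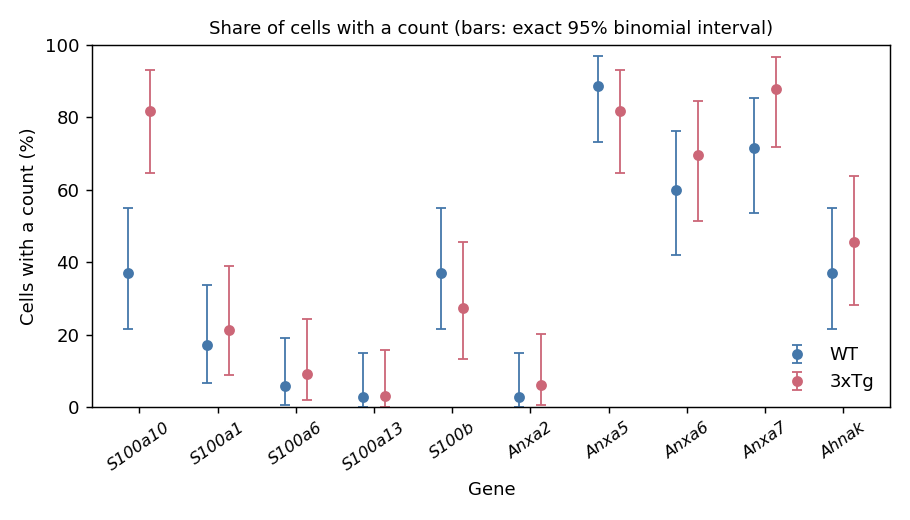
Share of cells with a count of each of the 10 genes, in percent, with exact 95% binomial intervals, for 35 WT and 33 3xTg cells. S100a10, the gene whose contrast chose the set, is at 81.8% in 3xTg and 37.1% in WT. The intervals cover the counting of these cells and not differences between mice, so they compare no genotypes.

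The annexins of broad expression were far more common in these neurons than Anxa2. Anxa5, which binds phosphatidylserine, was counted in 27 3xTg cells (81.8%) and 31 WT cells (88.6%). Its level ran from 0 through a median of 8.10 to 10.96 in 3xTg and from 0 through 8.42 to 10.71 in WT, so the genotypes covered the same range. The means were 6.90 ± 3.49 (SD, n = 33 cells) and 7.18 ± 3.25 (SD, n = 35 cells), a difference of −0.28, and the log2 ratio of sums was −0.37 (−0.40 to −0.34). The sign of the difference of the means depended on the runs, at −1.05 in the first runs and 0.84 in the second, while the log2 ratio of sums was below 0 in both, at −0.66 and −0.15. Over the cells with a count of Anxa5 the difference turned to 0.32. Leaving out single cells gave −0.49 to −0.07, and without cells that held C1q counts the difference was −1.39.

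Anxa7, also called synexin and known for its part in secretion and calcium handling, was counted in 29 3xTg cells (87.9%) and 25 WT cells (71.4%). It ran from 0 through a median of 6.41 to 8.79 in 3xTg and from 0 through 6.28 to 9.08 in WT, and the ranges overlapped over nearly their whole extent. The difference of the means was 0.99, but the log2 ratio of sums was 0.25 (0.19 to 0.31). Over its cells with a count the difference was −0.12, so the difference lay in the share of cells with a count. Without the cells that held a count of C1qa, C1qb or C1qc the direction turned, to −0.20. It too entered the expressed genes through the 3xTg cells alone, whereas Anxa5 entered through both genotypes.

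Anxa6, a large annexin with a doubled core that acts in endocytosis, was counted in 23 3xTg cells (69.7%) and 21 WT cells (60%), below the 80% that expressed genes had to reach. Its level ran from 0 through a median of 5.60 to 9.25 in 3xTg and from 0 through 4.88 to 8.68 in WT. The difference was 0.93 and the log2 ratio of sums 0.53 (0.45 to 0.61). By the means, the runs of 1 genotype differed more than the genotypes did over all cells for these annexins. The second run exceeded the first by 2.81 in WT and 3.10 in 3xTg for Anxa6, by 1.96 and 1.97 for Anxa7, and by 1.02 and 2.91 for Anxa5. By sums this did not hold for Anxa5 in WT, where the log2 ratio between the runs was 0.18. Within the first and second runs the genotypes differed by 1.27 and 1.56 for Anxa6 and by 1.26 and 1.28 for Anxa7. For Anxa5 they differed by −1.05 and 0.84. With genes detected entered as a term, the differences of Anxa6 and Anxa7 were 0.22 and 0.14 and that of Anxa5 was −1.04. The Anxa6 difference was 1.40 without cells with markers of other types and 1.505 without cells with C1q counts. The Anxa6 log2 ratio of sums was 0.68 in the first runs and 0.67 in the second. Over all 18 alternatives the Anxa6 difference stayed above 0, from 0.22 to 1.56.

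**Figure D3:**
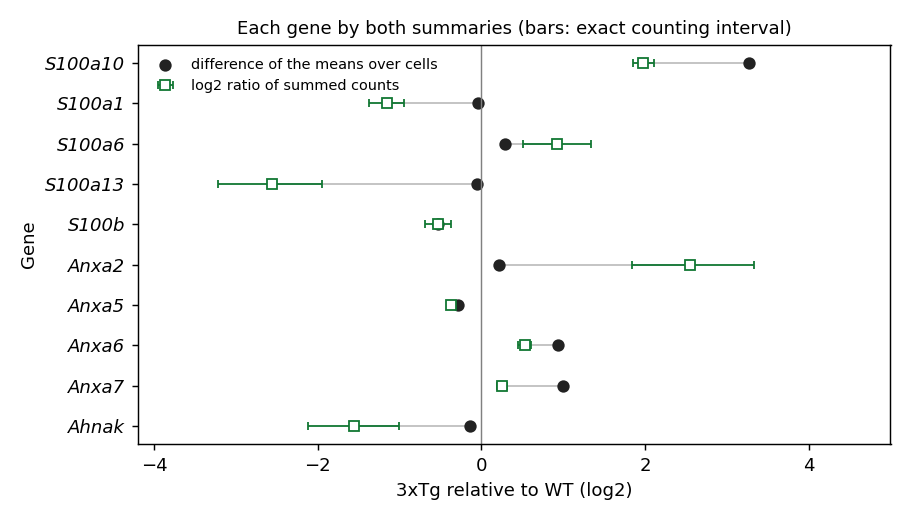
3xTg relative to WT for each of the 10 genes on the log2 scale, as the difference of the means over cells (filled circles) and as the log2 ratio of summed counts (open squares, with exact counting intervals). S100a10 is at 3.28 and 1.98, whereas Anxa2, S100a1, S100a13 and Ahnak are near 0 by the means and far from 0 by the sums.

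Of the 3 members among the expressed genes, S100a10 alone differed by at least 1, upward, by the means and by the sums, and none was lower by that size. Over all expressed genes 27.7% were higher and 0.527% lower by the means, and 2.63% and 3.81% by the sums. The median difference of the 3 members was 0.99, with S100a10, Anxa7 and Anxa5 at 3.28, 0.99 and −0.28, and that of all expressed genes was 0.47. Of all 17940 genes with a count, 15.7% were higher by at least 1 in 3xTg and 0.513% lower. At a limit of 1.5-fold, S100a10 and Anxa7 were higher, as were 44.7% of the expressed genes. A cell held counts of 1 to 6 of the 10 genes in WT and of 2 to 7 in 3xTg, with a median of 4 in both.

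**Figure D4:**
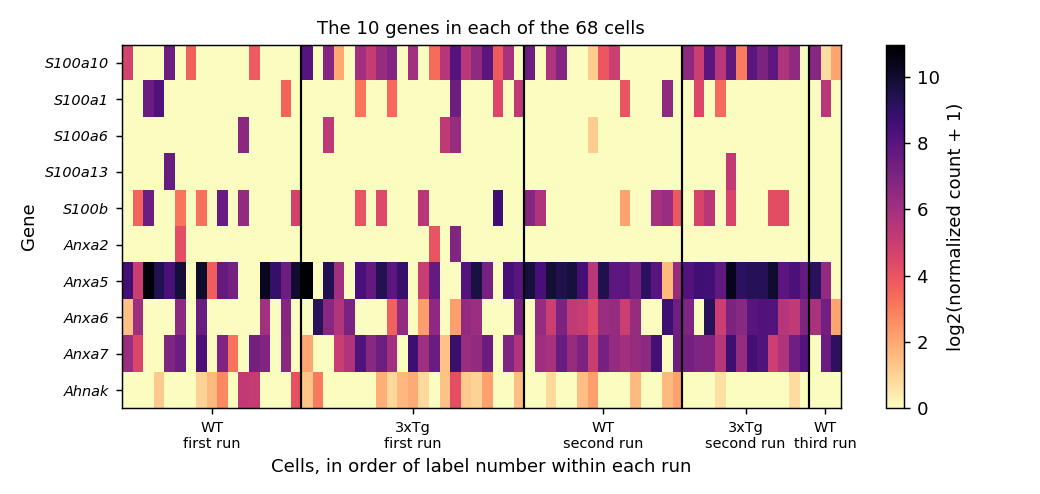
Level of the 10 genes in each of the 68 cells as log2(normalized count + 1), with cells in order of label number within each run. Anxa5 and Anxa7 are counted in most cells, S100a10 in 27 3xTg cells and 13 WT cells, and Anxa2, S100a6 and S100a13 in at most 5 cells each.

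One 3xTg cell, label number 43 in the first run, held the largest 3xTg share of 4 members, namely S100a1 (144 counts), S100a6 (65), Anxa2 (99) and Ahnak (14). It was singled out after its values were seen. Its summed level of 8 microglial markers was the highest of the 68 cells at 7139 CPM, with 2048 counts of C1qb and 225 of P2ry12, and its dopaminergic level of 7554 CPM stood 64th of 68, with 1579 counts of Th. Without it, Anxa2 was left with 21 3xTg and 19 WT counts (log2 ratio 0.06, −0.90 to 1.04) and S100a6 with 84 and 73 (0.12, −0.35 to 0.59). The ratio of S100a1 moved to −2.22 and that of Ahnak to −2.17, on 25 3xTg and 106 WT counts. S100a10, of which this cell held 224 counts, kept a difference of 3.18 and a log2 ratio of 1.89 (1.76 to 2.01) without it. Over cells, the microglial list ran from 0 to 7139 CPM in 3xTg and from 0 to 5142 CPM in WT. Its median was 134 CPM in 3xTg and 150 CPM in WT, and its pooled level was 290 and 693 CPM. Leaving out every cell with a count of C1qa, C1qb or C1qc left a share of 73.3% with S100a10 in 3xTg and 33.3% in WT, and a difference of the means of 2.78.

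Levels can be compared between genes only per length of transcript. In summed CPM per 1000 bases, Anxa5 was the most abundant of the 10, at 211 in 3xTg and 272 in WT. S100a10 came next in 3xTg at 111, above Anxa7 at 47.6 and Anxa6 at 38.4. In WT, Anxa7 came next at 40.02, and S100a10 (28.2), Anxa6 (26.6) and S100a1 (24.3) lay close together below it, whereas S100a1 was at 10.9 in 3xTg. These levels of scarce genes rest on single cells. Without the highest cell of the genotype, S100a1 was at 5.21 in 3xTg and 14.8 in WT, and S100b at 4.03 in 3xTg and 11.2 in WT. S100b (10.8 and 15.6) lay below these, S100a6 (5.55 and 2.94), Anxa2 (2.26 and 0.386) and S100a13 (0.990 and 5.84) were low, and Ahnak was lowest at 0.0587 and 0.172.

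Most of the wider S100 family was rarely counted in these neurons. Of 16 S100 genes looked up, 4 had no count in any cell (S100a3, S100a5, S100a8 and S100z), 9 were counted in fewer than 10 cells, and S100a10 was the only one among the expressed genes. S100a11, a close relative that pairs with annexin A1, was counted in 7 3xTg cells and 1 WT cell, with sums of 249 and 8, of which the 3xTg cell with label number 43 held 112. S100a9, an alarmin of myeloid cells, was counted in 5 3xTg cells with 55 counts in sum and in 0 of 35 WT cells. The exact Poisson interval of the WT sum reaches up to 3.69 counts (counting error only). The same 3xTg cell held 32 of those 55 counts. S100a16 (65 counts) and S100g (40 counts) were each counted in 1 WT cell.

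Of 12 annexins, Anxa5 and Anxa7 were among the expressed genes, Anxa8 had no count, and neither of the expressed annexins differed by 1 or more (27.7% of all expressed genes were higher and 0.527% lower by that size). Anxa1, known for its anti-inflammatory action and as a marker of some dopamine neurons, varied widely from cell to cell. The 17 3xTg and 14 WT cells that held it included 14 and 10 with at least 10 counts, and its level reached 11.89 and 11.71 on the log2 scale. The difference of the Anxa1 means was 0.95, and its sums of 11678 and 10129 gave a log2 ratio of 0.10 (0.06 to 0.13). The ratio was −0.44 in the first runs and 0.74 in the second. It turned to −0.35 without the highest 3xTg cell (28.3% of the 3xTg sum) and was 0.54 without the highest WT cell (29.1% of the WT sum). S100a10 and Anxa1 were counted together in 16 of the 3xTg cells and 3 of the WT cells. Anxa3 (65 and 349 counts), Anxa9 (10 and 174) and Anxa4 (0 and 76) rested on few cells or few counts.

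Among 12 proteins known to bind S100A10 or to be carried by it, Anxa2 and Ahnak included, 4 belonged to the expressed genes, of which 1 was higher and 1 lower by at least 1 in 3xTg (against 27.7% and 0.527% of all expressed genes), and Htr1b and Asic1 had no count. Ctsb, the protease cathepsin B, was the most abundant and was higher by 1.06, with a log2 ratio of sums of 0.23. In the first runs Ctsb differed by 0.26 (log2 ratio of sums −0.06) and in the second by 2.02. Kcnk3, which encodes TASK-1 and is named here after its values were seen, was lower by 1.18. It ran from 0 through a median of 2.65 to 7.10 in 3xTg and from 0.75 through 3.67 to 8.50 in WT, with sums of 437 and 1561 counts (log2 ratio −1.95, −2.10 to −1.79). The order held in the first runs (−1.37, log2 ratio of sums −2.51) and in the second (−1.35 and −1.08). The 5 highest WT cells held 73.7% of the WT sum, and without the highest one the ratio was −1.56. Kcnk3 was lower in cells with more genes detected (rho −0.58 over 33 3xTg and −0.47 over 35 WT cells), and with that number as a term the difference was −0.65. Across cells S100a10 and Kcnk3 showed little relation, with rho of −0.05 over 3xTg and 0.01 over WT cells.
Plat, the tissue plasminogen activator, was counted in 13 cells of each genotype, with a difference of −0.15 and a log2 ratio of sums of −1.02. Grm5, a metabotropic glutamate receptor, differed by 1.40, but by 2.54 in the first runs and 0.01 in the second. Hltf, a chromatin remodeler, differed by 0.61 by the means, but its log2 ratio of sums was −0.25 (−0.37 to −0.13), at 0.57 in the first runs and −0.52 in the second.

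Among the expressed genes whose level went most closely with that of S100a10 over cells were Reep5 (mean of the within-genotype Spearman correlations 0.46), Ubl5 (0.46), Ndufb7 (0.45) and Ube2d3 (0.45). In these 4 genes the correlation was larger over the 33 3xTg cells, from 0.59 to 0.71, than over the 35 WT cells, from 0.20 to 0.33. S100a10 was counted in 27 3xTg and 13 WT cells, so more WT values were tied at 0. The correlations of the genotypes are therefore not like for like. The median over all expressed genes was 0.05 (0.09 over 3xTg and 0.005 over WT cells). Cells share depth and library quality, so these values describe the cells only. For Ahnak the closest gene was Col27a1 (0.62), and for Anxa2, with only 3 cells that held a count, Samd11 (0.33).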

How the data were processed

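RNA of 68 single neurons was measured. The authors deposited estimated counts per gene for each cell, made by trimming reads, aligning them with Strand NGS to the mm10 RefSeq transcriptome and removing duplicates. The deposited log2 values had been normalized by the authors with DESeq2 and were used as an alternative only. Removing duplicate reads can lower the counts of short abundant transcripts.

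Size factors were medians of ratios over 787 genes counted in all cells, and values were log2(count / size factor + 1). Expressed genes (3988) reached a normalized count of 1 in 80% or more of 1 genotype's cells. For sums, thinning and TMM factors the counts were rounded to whole numbers. Intervals were exact at 95%. Totals ranged from 492505 to 1678624 counts per cell, and 3 counts summed over the WT cells correspond to 0.09 CPM. Cells were not treated as replicates, so no test was run. Calculations were tested on simulated data with known changes.

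Members and gene lists were chosen with earlier results of these data known. Named were the 10 members, up to 4 genes of each list with the highest summed CPM, the neighbours of S100a10 in the ranking and its 5 closest genes by correlation, of which 1 is not reported here. Genes named outside this rule were chosen after their values were seen. Alternatives were CPM, TMM factors, thinning to 700471 counts (7 shallower cells left out), pseudocounts of 0.1 and 10, sums, cells with a count alone, cells without markers of other types, single runs, genes detected as a term, the deposited normalized values and leaving out each cell. Doublets were not called, and recordings were not analysed here. Transcript lengths and coding sequences came from GENCODE transcripts paired with RefSeq. No upstream sequence is given for S100a10 and Anxa6. Python 3.11.15, numpy 2.4.6, scipy 1.17.1, pandas 2.3.3, matplotlib 3.10.9, R 4.3.3 and edgeR 4.0.16 (TMM) were used.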

Additional observations from a re-analysis of the deposited data

How the results depend on the processing

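The S100a10 difference (3.28) kept its direction under all 18 alternatives, from 1.53 to 4.80. It was 1.74 with a pseudocount of 10, 1.98 as the ratio of sums, 1.91 as that ratio in the second runs and 1.53 in cells with a count alone, and leaving out single cells gave 3.18 to 3.45. The shares of cells with S100a10 ran from 73.3% to 91.7% in 3xTg and from 23.5% to 40% in WT. The count of expressed members higher by at least 1 was 1, and it became 2, with Anxa7 as the added gene, with a pseudocount of 0.1, without cells with markers of other types, in the first runs, in the second runs, without the third WT run and at 1.5-fold, and 1 to 2 on leaving out single cells. Anxa5 was lower by at least 1 in the first runs (−1.05), with genes detected as a term (−1.04) and without cells with C1q counts (−1.39). The median of the expressed members (0.99) was 1.51 and 0.55 with pseudocounts of 0.1 and 10, 0.25 by sums, 0.49 and 0.35 by sums in the first and second runs, 0.32 in cells with a count alone, 0.14 with genes detected as a term and −0.20, the value of Anxa7, without cells with C1q counts. The cause was not tested. Leaving out single cells gave 0.85 to 1.17. The median of all expressed genes ran from −0.11 to 0.60 over these alternatives. The settings without the third WT run or without C1q cells, the sums within runs and the values without single high cells were chosen after seeing the data. No paired analysis was possible because no mouse is named for any cell and the genotypes are separate lines. The values of Anxa2, S100a6 and S100a13 rest on at most 5 cells each and those of Ahnak on 145 counts. Whether depth limits them was not tested.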

Other observations

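Genes of plasma membrane repair, a process in which annexins plug lesions and the ESCRT machinery cuts off damaged membrane, were looked up beside the annexins. Of 15 such genes 14 had a count and 3 were among the expressed genes (Capns1, Trim72 and Vps4a), of which 2 were higher by at least 1 in 3xTg and none lower, against 27.7% and 0.527% of all expressed genes. Both of these, Capns1 (81.8% of 3xTg and 57.1% of WT cells) and Vps4a (81.8% and 74.3%), reached the 80% of cells through 3xTg alone, a class in which 66.4% of genes were higher by at least 1. Capns1, the small calpain subunit, differed by 1.56 (log2 ratio of sums 1.01), and by 0.89 and 2.67 in the first and second runs. It was named after its values were seen. Vps4a, an ESCRT ATPase, differed by 1.01, but its log2 ratio of sums was −0.09, and the first and second runs differed by 0.05 and 1.90. Pdcd6ip (ALIX), which recruits ESCRT to lesions, was counted in 25 of 33 3xTg and 17 of 35 WT cells, with sums of 2874 and 978 (log2 ratio 1.45, 1.34 to 1.55), a difference of 2.03, and differences of 2.76 and 1.30 in the first and second runs. Its partner Pdcd6 differed by 0.65 by the means and by −0.34 as the log2 ratio of sums, and for Vps4b these values were 0.97 and −0.27. Dysf (dysferlin) was counted in 0 of 33 3xTg cells and 4 of 35 WT cells.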
